A study of Rattus norvegicus with 9 samples.

Results

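The genes described here present peptides to T cells. They comprise every row of the deposited gene table whose symbol begins with RT1-, the rat major histocompatibility complex (MHC), together with B2m, Cd74, Ciita, Nlrc5, Tap1, Tap2, Tapbp, Psmb8, Psmb9, Psmb10, Psme1, Psme2, Cd80, Cd86 and Cd40. Of 43 such rows, 41 reached 0.5 in 3 or more libraries and were kept, out of 17770 genes that passed the same threshold and 22888 genes in the table. The rule uses symbol and level and no difference between groups, but the members were chosen with earlier results of these data known. The rows left out were RT1-DOa, above 0 in astaxanthin 2 and model 3, and RT1-M2, above 0 in model 3. RNA was sequenced from brain tissue of male Sprague-Dawley rats in 3 groups of 3 libraries. The astaxanthin group (libraries 1, 2 and 3) had received the carotenoid astaxanthin by gavage for 7 days at 45 mg/kg, the dose the labels call medium, before the middle cerebral artery was occluded on one side. The model group (libraries 1, 3 and 4) had the occlusion (MCAO), and the sham group (libraries 1, 3 and 5) is labelled as sham. Brain tissue was collected 1 day later, and no further treatment of model or sham rats is named. The labels give neither the region nor the side of the brain, nor whether each library is a separate animal, so p-values measure only the spread between these libraries.

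Class I MHC molecules carry peptides from inside the cell. The heavy chain pairs with beta-2 microglobulin, the product of B2m. Peptides are cut by the proteasome, in which interferon can exchange the catalytic subunits Psmb5, Psmb6 and Psmb7 for the immunoproteasome subunits Psmb8, Psmb9 and Psmb10. They then enter the endoplasmic reticulum through the transporter Tap1-Tap2 and are loaded with the help of tapasin (Tapbp). Class II molecules carry peptides from material that was taken up, are held by the invariant chain Cd74 and exchange its remnant for peptide with the help of RT1-DM. Nlrc5 and Ciita are the main transcriptional activators of class I and class II genes. In the brain both pathways are low in neurons and are carried largely by microglia, border macrophages, endothelium and infiltrating leukocytes.

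Values are normalized reads, that is read counts divided by a factor per library, and recovered totals were 52268061 to 76311125 reads per library. Values of 3 reads, the limit that a count of 0 allows, lay between 2.45 and 3.75 normalized reads, which covers counting error only. Differences were tested with limma on log2(value + 1) over all 17770 genes, with p-values adjusted by Benjamini-Hochberg and called under 0.05, and are given with a standard error (SE). In the file's rn7 coordinates 31 of the 41 genes lie on chromosome 20, where Tap2 (chr20:4636357-4650407), Psmb8 (chr20:4652159-4655283), Tap1 (chr20:4656263-4666901) and Psmb9 (chr20:4666046-4672512) follow one another. Of the 41 genes, 17 overlap another gene of the table: Tap1 and Psmb9 share 856 bases, while Nlrc5, Cd74 and Tapbp lie wholly within the spans given for Ces2g, Cyb5a and Rgl2. Whether strand was used in counting is not given in the sources used here, and reads of near-identical RT1 copies may have been divided among them, so values of these rows are uncertain to that extent.

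RefSeq promoter windows of GRCr8, 250 bases before to 50 after a start, were found for 35 of the 41 genes, and stretches of them are shown so that the motifs searched can be read beside the values. An interferon-stimulated response element was searched as GAAA, 2 bases of any kind and GAAA, and as its reverse complement, TTTC, 2 bases of any kind and TTTC. It occurred in 3.92% of 33469 promoter windows and in 11 of the 35 windows. Of the 9 genes that make, cut, carry or load class I peptides or form the light chain (B2m, Tap1, Tap2, Tapbp, Psmb8, Psmb9, Psmb10, Psme1 and Psme2), 7 held it. Of the others, 3 of the 16 class I heavy-chain windows held it, and 0 of the 8 class II windows did. These counts were not tested against one another. A match is a description of these letters, not a bound site. The stretches around each match follow, 5′ to 3′ along the gene, with the matches in capitals, in which overlapping matches of Tapbp run together.
B2m (chr3:129549168-129549201, plus strand): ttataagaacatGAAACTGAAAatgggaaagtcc
Tap1 (chr20:4668643-4668676, minus strand): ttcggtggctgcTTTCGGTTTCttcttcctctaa
Tap2 (chr20:4652316-4652349, minus strand): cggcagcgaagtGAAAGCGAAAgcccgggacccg
Tapbp (chr20:4967876-4967915, minus strand): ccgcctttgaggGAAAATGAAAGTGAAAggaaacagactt
Psmb8 (chr20:4657014-4657047, minus strand): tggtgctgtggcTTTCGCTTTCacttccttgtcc
Psmb10 (chr19:50743288-50743377, minus strand): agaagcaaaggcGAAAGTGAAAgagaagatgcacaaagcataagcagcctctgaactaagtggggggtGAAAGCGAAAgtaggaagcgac
Psme2 (chr15:33052783-33052816, minus strand): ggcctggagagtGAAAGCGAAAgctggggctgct

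The Y box, CCAAT or its reverse complement ATTGG, belongs to the S-Y module through which Ciita acts on class II promoters. It occurred in 37.5% of all windows, in 22 of the 35, in 8 of 8 class II windows, Cd74 included, in 10 of 16 heavy-chain windows and in 3 of the 9 machinery windows. The other motifs searched were the gamma-activated site TTCNNNGAA, which is its own reverse complement, and the NF-kappaB form, GGG, 5 bases of any kind and CC, or its reverse complement, GG, 5 bases of any kind and CCC. The gamma-activated site was in 3 windows, those of Cd80, Psmb8 and RT1-M3-1, against 8.87% of all. The NF-kappaB form was in 19 windows, against 47.3% of all. The first ATTGG of 7 class II windows is shown in capitals with the 36 bases before it, so that the flanks can be compared.
RT1-Ba (chr20:4576978-4577026, plus strand): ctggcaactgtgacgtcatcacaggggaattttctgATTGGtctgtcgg
RT1-Bb (chr20:4604167-4604215, minus strand): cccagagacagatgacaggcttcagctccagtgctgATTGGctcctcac
RT1-Da (chr20:4515330-4515378, plus strand): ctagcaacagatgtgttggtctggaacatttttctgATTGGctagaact
RT1-Db1 (chr20:4560230-4560278, minus strand): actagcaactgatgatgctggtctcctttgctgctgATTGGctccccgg
RT1-Db2 (chr20:4541700-4541748, minus strand): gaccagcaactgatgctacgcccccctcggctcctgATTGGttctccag
RT1-DMa (chr20:4712387-4712435, minus strand): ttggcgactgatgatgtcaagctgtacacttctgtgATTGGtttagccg
RT1-DOb (chr20:4627594-4627642, minus strand): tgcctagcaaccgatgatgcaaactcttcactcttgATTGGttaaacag

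After occlusion, every model library lay above every sham library in 8 of the 9 genes of the class I machinery and in 2 of the 18 class I heavy-chain rows, but no gene passed the adjusted test in limma. Of the 41 genes, 34 had a positive log2 difference between model and sham, with a median of 0.93, beside 50.9% positive and a median of 0.02 over all genes. Over all 41, such a complete separation upwards was seen in 16 genes, where 19.0% of all genes did so, and in 1 gene, RT1-N2, every model library lay below, where 16.6% did. limma thus called 0 of the 41, where 3.45% of all genes were called higher and 1.32% lower. At an unadjusted limma p under 0.05 there were 16 genes higher, beside 13.7% of all genes, and RT1-N2 lower, beside 10.1%. edgeR on the recovered reads also called 0, with 16 at an unadjusted p under 0.05 in either direction, beside 24.0% of all genes. DESeq2 called 13, all higher in model, where it called 10.5% of all genes higher and 5.93% lower; at an unadjusted p under 0.05 it had 17, beside 28.3% of all genes. The 13 were Nlrc5, B2m, Psme1, Psme2, Tap1, Tap2, Psmb8, Psmb9, RT1-CE1, RT1-Bb, RT1-DMb, Cd40 and Cd86.

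**Figure D1:**
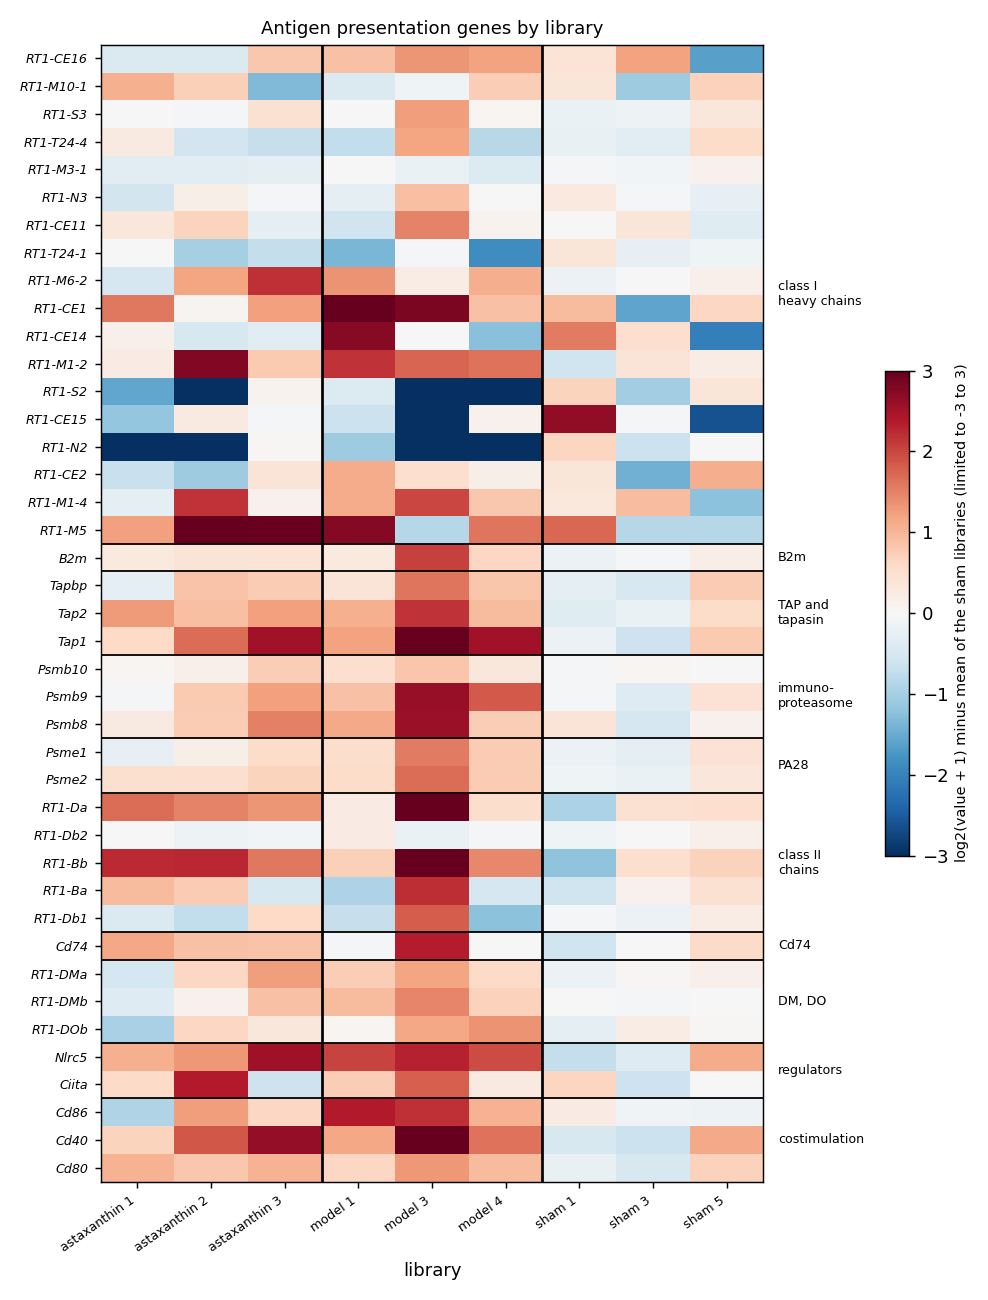
Each row is a gene, ordered by role and by mean value within a role, and each column a library. Colour is log2(value + 1) minus the mean of the 3 sham libraries, limited to the range from -3 to 3; model 3 is the highest library in 22 of the 41 rows, and the class I heavy chains at the top have both colours in every group.

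B2m, the light chain shared by all classical class I molecules, had 19207, 64780 and 24298 normalized reads in model 1, 3 and 4, against 14019, 15411 and 17983 in sham 1, 3 and 5. Every model library exceeded every sham library, but model 3 stood far above the rest. The log2 difference was 0.99 ± 0.40 (SE; limma adjusted p = 0.176), and 0.46 without model 3. In bulk tissue, fewer or more cells of a type and less or more RNA per cell cannot be told apart.

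Both chains of the peptide transporter were higher in every model library than in any sham library. Tap1 had 554, 1996 and 1389 normalized reads in model 1, 3 and 4, against 214, 156 and 417 in sham 1, 3 and 5. The log2 difference was 2.26 ± 0.63 (SE; limma adjusted p = 0.0775). Tap2, its partner, had 1089, 2329 and 1003 in model 1, 3 and 4, against 402, 451 and 762 in sham 1, 3 and 5. With 1.40 ± 0.37 (SE), its limma adjusted p of 0.0672 was the smallest of the 41 genes. Without model 3 the log2 differences were 1.86 for Tap1 and 1.01 for Tap2. Tapbp, the tapasin that bridges transporter and heavy chain, had 1174, 2705 and 1604 in model 1, 3 and 4, against 742, 636 and 1518 in sham 1, 3 and 5, and its groups overlapped through model 1 and sham 5. Its log2 difference was 0.94 ± 0.45 (SE; limma adjusted p = 0.244).

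The immunoproteasome subunits followed the same order. Psmb9 had 323, 1078 and 633 normalized reads in model 1, 3 and 4, against 173, 133 and 237 in sham 1, 3 and 5. Psmb8 had 345, 945 and 261 in model 1, 3 and 4, against 203, 109 and 171 in sham 1, 3 and 5. Psmb10 differed least, with 1559, 1978 and 1392 in model 1, 3 and 4, against 1068, 1150 and 1096 in sham 1, 3 and 5. No group overlapped in these subunits, and the log2 differences were 1.77 ± 0.50 for Psmb9, 1.49 ± 0.54 for Psmb8 and 0.56 ± 0.23 for Psmb10 (SE; limma adjusted p = 0.0818, 0.142 and 0.179 in that order). Psme1 and Psme2 form the PA28 cap, which opens the proteasome's gate. Psme2 averaged 1799 ± 788 normalized reads in model and 863 ± 181 in sham (SD, n = 3 each), with a log2 difference of 0.99 ± 0.30 (SE; limma adjusted p = 0.092). Psme1 averaged 3647 ± 1448 in model and 1828 ± 495 in sham (SD, n = 3 each), with 0.96 ± 0.33 (SE; limma adjusted p = 0.125). All 9 genes of the machinery had a positive difference, from 0.56 to 2.26 with a median of 0.99. Without model 3 it was still positive in 9 of 9, from 0.42 to 1.86 with a median of 0.66.

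**Figure D2:**
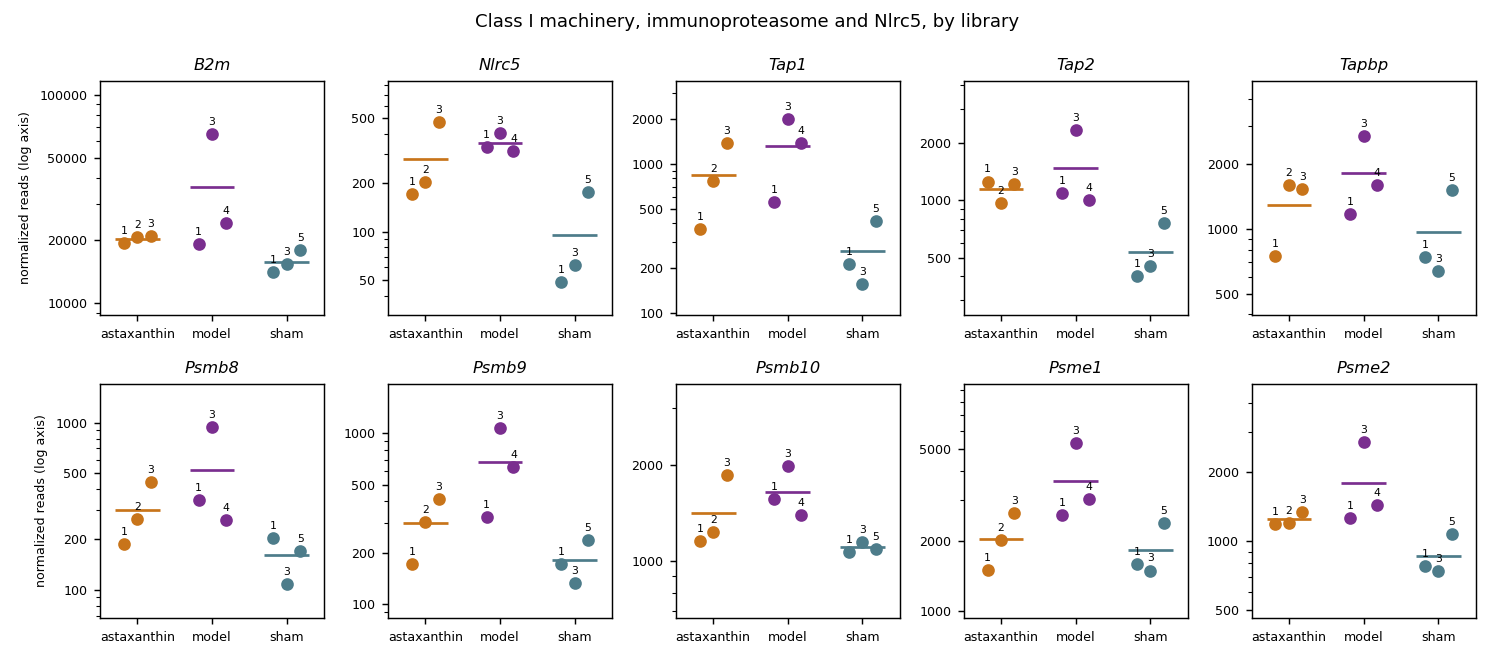
Normalized reads on log axes in each library, with the library number beside each point and the group mean as a bar. For every gene except Tapbp the model libraries lie above all sham libraries, and model 3 is the highest library in all but Nlrc5, where astaxanthin 3 is (473).

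The 17 other proteasome genes that were listed were subunits of the constitutive core and caps and the assembly factor Pomp. Their log2 differences between model and sham ran from -0.23 to 0.46, with a median of 0.20. limma called 0 of them (smallest adjusted p = 0.167). The level of each immunoproteasome subunit was therefore set against the subunit it replaces, both per kilobase of transcript. Psmb8 stood at 5.66, 14.5 and 4.62% of Psmb5 in model 1, 3 and 4, against 2.69, 1.54 and 2.10% in sham 1, 3 and 5. Psmb9 stood at 5.27, 14.5 and 9.82% of Psmb6 in the model libraries, against 2.94, 2.13 and 3.38% in the sham libraries. Psmb10 stood at 11.7, 13.9 and 11.2% of Psmb7 in the model libraries, against 10.5, 8.14 and 7.23% in the sham libraries. In all 3 pairs every model library was above every sham library, and in all of them the constitutive subunit remained the more abundant RNA. Psme3, the nuclear PA28 gamma, is not interferon-induced; Psme1 stood at 121 ± 67.9% of it in model and 66.1 ± 19.6% in sham (SD, n = 3 each), with model 3 at 198%.

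**Figure D3:**
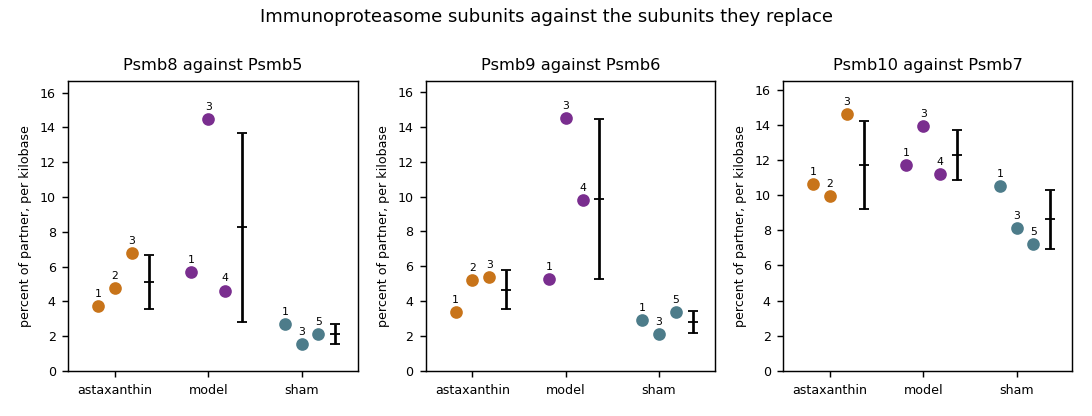
Each point is a library, with its number, and gives the per-kilobase level of an immunoproteasome subunit as a percentage of the constitutive subunit it replaces; the marks beside the points are the mean and SD of 3 libraries. Axes start at 0; Psmb8 averages 8.25% of Psmb5 in model and 2.11% in sham.

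The class I heavy chains as a whole differed less. Their 18 rows summed to 8763, 12515 and 9428 normalized reads in model 1, 3 and 4, against 8581, 7770 and 8084 in sham 1, 3 and 5. All 3 model sums exceeded the sham sums, but model 1 by little, and the log2 ratio of means was 0.33, and 0.16 without model 3. This order depends on single rows. RT1-M10-1, which lies wholly within the span given for Trim39, had 1212, 1490 and 2752 in model 1, 3 and 4. In sham 1, 3 and 5 it had 2114, 786 and 2646. Without this row the sum of model 4 falls below that of sham 3. Of the 18 rows 12 had a positive difference, with a median of 0.39, and 2 had every model library above every sham library. These were RT1-M1-2, with 135, 99.8 and 91.5 in model 1, 3 and 4 against 18.8, 38.3 and 34.2 in sham 1, 3 and 5, and RT1-M6-2, with 285, 130 and 236 in model 1, 3 and 4 against 98.8, 112 and 124 in sham 1, 3 and 5. Both are nonclassical genes of the M region. RT1-M1-2 had a log2 difference of 1.85 ± 0.67 (SE; limma adjusted p = 0.143). The row with the highest mean, RT1-CE16, had 2496, 3377 and 3098 in model 1, 3 and 4, against 1799, 3121 and 440.0 in sham 1, 3 and 5, and the groups overlapped through sham 3. RT1-M3-1 was among the steadiest, at 735 ± 98.3 in model and 843 ± 70.6 in sham (SD, n = 3 each).

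Model 3 stood far above the other libraries in most class II chain rows and in Cd74. The 5 classical chain rows summed to 620, 3103 and 639 normalized reads in model 1, 3 and 4, against 472, 670 and 771 in sham 1, 3 and 5. Model 1 and model 4 lay inside the sham range, and the log2 ratio of means was 1.19 with model 3 and -0.02 without it. RT1-Da, the DR-type alpha chain, had 142, 1266 and 172 in model 1, 3 and 4, against 61.3, 164 and 169 in sham 1, 3 and 5. RT1-Bb, the DQ-type beta chain, had 68.9, 776 and 114 in model 1, 3 and 4, against 17.5, 59.3 and 68.3 in sham 1, 3 and 5, without overlap although model 1 and sham 5 nearly met. Without model 3 the log2 difference was 0.39 for RT1-Da, against 1.39 with it, and 1.07 for RT1-Bb, against 2.11 with it. Cd74 had 676, 3498 and 683 in model 1, 3 and 4, against 458, 689 and 1032 in sham 1, 3 and 5. Its log2 difference was 0.77 ± 0.61 (SE; limma adjusted p = 0.478), and -0.02 without model 3. RT1-Db2 was flat, at 247 ± 39.6 in model and 245 ± 23.4 in sham (SD, n = 3 each).

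The peptide exchange genes were higher in all 3 model libraries. RT1-DMb had 1549, 2214 and 1293 normalized reads in model 1, 3 and 4, against 808, 776 and 811 in sham 1, 3 and 5. RT1-DMa, the other chain of the same heterodimer, had 1921, 2597 and 1697 in model 1, 3 and 4, against 1012, 1165 and 1264 in sham 1, 3 and 5. Neither overlapped, and the log2 differences were 1.04 ± 0.33 for RT1-DMb and 0.83 ± 0.40 for RT1-DMa (SE; limma adjusted p = 0.105 and 0.247 in that order), and 0.83 and 0.66 without model 3. RT1-DOb, whose product restrains DM, had 25.1, 55.6 and 63.4 in model 1, 3 and 4, against 20.02, 28.4 and 24.9 in sham 1, 3 and 5, with model 1 inside the sham range.

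**Figure D4:**
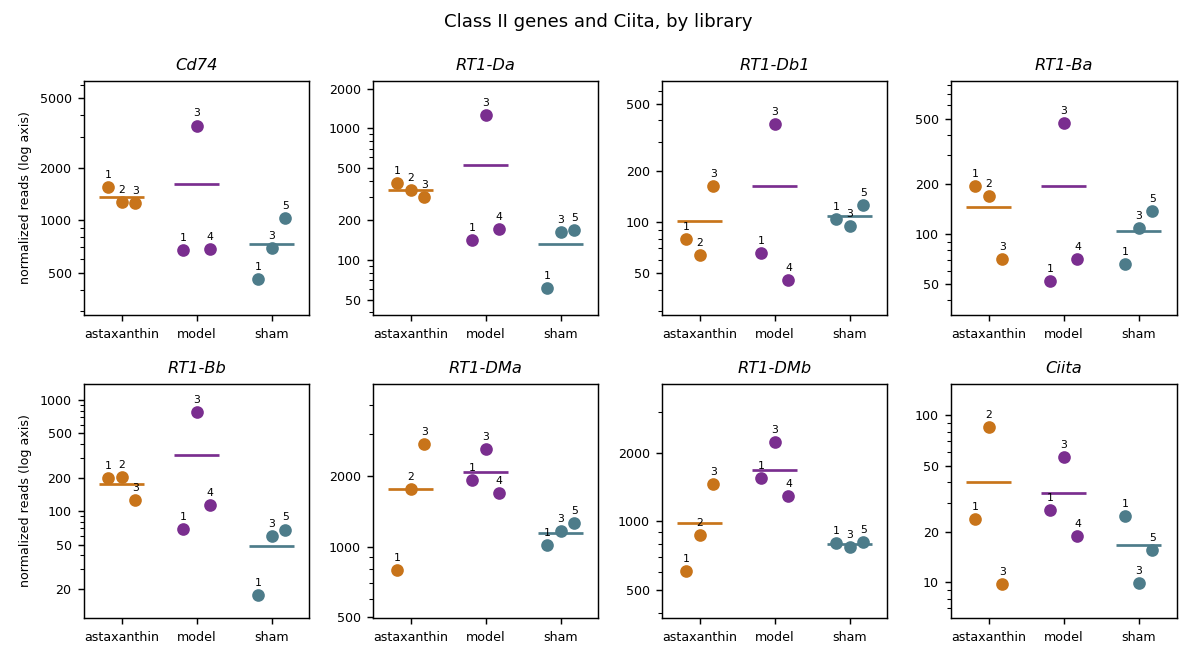
Normalized reads on log axes in each library, numbered as in the labels, with group means as bars. Cd74, RT1-Da and RT1-Bb have all 3 astaxanthin libraries above all 3 sham libraries and a single high model library (model 3, with 3498 for Cd74), whereas RT1-DMa and RT1-DMb have all 3 model libraries above sham.

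Of the activators, Nlrc5 separated the groups and Ciita did not. Nlrc5 had 334, 407 and 315 normalized reads in model 1, 3 and 4, against 48.8, 61.8 and 175 in sham 1, 3 and 5. Its 3 model libraries were close to one another, and the log2 difference was 2.10 ± 0.56 (SE; limma adjusted p = 0.0685), and 1.99 without model 3. Ciita had 27.0, 56.6 and 19.0 in model 1, 3 and 4, against 25.0, 9.88 and 15.5 in sham 1, 3 and 5, and the groups overlapped; its log2 difference was 0.93 ± 0.84 (SE; limma adjusted p = 0.541).

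The costimulatory receptors give T cells the second signal or receive their help. Cd86, a ligand of Cd28, had 393, 345 and 157 normalized reads in model 1, 3 and 4, against 90.1, 70.4 and 67.3 in sham 1, 3 and 5. Cd40 had 71.7, 354 and 101 in model 1, 3 and 4, against 22.5, 19.8 and 70.4 in sham 1, 3 and 5. Neither overlapped, Cd40 by a narrow margin between model 1 and sham 5, and the log2 differences were 1.87 ± 0.60 for Cd86 and 2.08 ± 0.79 for Cd40 (SE; limma adjusted p = 0.108 and 0.159 in that order). Without model 3 that of Cd40 was 1.39. Cd80, the other ligand of Cd28, had 90.3, 146 and 113 in model 1, 3 and 4, against 50.04, 42.0 and 95.2 in sham 1, 3 and 5, overlapping through sham 5, with 0.95 ± 0.42 (SE; limma adjusted p = 0.208).

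Between astaxanthin and model no gene of the whole table passed limma's threshold. The 41 genes had a median log2 difference of -0.30, beside -0.01 over all genes, and 11 were positive, beside 49.0% of all genes. Groups did not overlap in 1 gene, RT1-CE16, lower in astaxanthin, where 7.24% of all genes were lower without overlap, and in 0 genes higher, where 5.72% were. At an unadjusted limma p under 0.05, 3 genes were lower, beside 5.03% of all genes, and 0 higher, beside 3.86%; edgeR called 0 of the 41, with 5 at an unadjusted p under 0.05, beside 10.2% of all genes. DESeq2 also called 0, where it called 0.332% of all genes higher and 0.827% lower, with 5 at an unadjusted p under 0.05, beside 13.8%. The 9 genes of the class I machinery had negative differences, from -1.11 (Psmb9) to -0.23 (Psmb10), with a median of -0.62. Without model 3, 8 of 9 were negative with a median of -0.11, and without both model 3 and astaxanthin 1, 4 of 9 were, with a median of 0.04.

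The 3 genes with an unadjusted p under 0.05 were Cd86, RT1-DMb and Psme1. Cd86 had 40.1, 182 and 116 normalized reads in astaxanthin 1, 2 and 3, against 393, 345 and 157 in model 1, 3 and 4. The log2 difference was -1.54 ± 0.60 (SE; limma adjusted p = 0.548), and astaxanthin 2 overlapped model 4. RT1-DMb had 607, 876 and 1460 in astaxanthin 1, 2 and 3, against 1549, 2214 and 1293 in model 1, 3 and 4, with -0.84 ± 0.33 (SE; limma adjusted p = 0.548). Psme1 had 1499, 2018 and 2635 in astaxanthin 1, 2 and 3, against 2589, 5297 and 3054 in model 1, 3 and 4, with -0.80 ± 0.33 (SE; limma adjusted p = 0.553). In each of them astaxanthin 1 was the lowest astaxanthin library, and without it the log2 differences were -0.92, -0.54 and -0.59 in the order given. RT1-CE16 had 1000.0, 1004 and 2378 in astaxanthin 1, 2 and 3, against 2496, 3377 and 3098 in model 1, 3 and 4, with -1.15 ± 0.66 (SE; limma adjusted p = 0.595). B2m in astaxanthin 1, 2 and 3 stood at 19329, 20661 and 20918, just above model 1 (19207) and below model 3 (64780) and model 4 (24298).

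Between astaxanthin and sham, limma called 0.236% of all genes higher and 0.0394% lower, and 0 of the 41. edgeR and DESeq2 also called 0 of them, where DESeq2 called 2.94% of all genes higher and 1.51% lower. This comparison shares its astaxanthin libraries with the preceding one and its sham libraries with that of model and sham, so the 3 sets of differences are not independent. In 8 genes every astaxanthin library lay above every sham library, where 13% of all genes did, and RT1-M3-1 lay below, where 11.4% did. The 8 were Tap2, Psme2, Psmb10, B2m, Cd80, Cd74, RT1-Da and RT1-Bb. At an unadjusted limma p under 0.05 there were 4 genes, all higher (Tap1, Tap2, Nlrc5 and Cd80), beside 6.99% of all genes, and 0 lower, beside 5.35%. In either direction edgeR gave 4 at an unadjusted p under 0.05, beside 12.8% of all genes, and DESeq2 gave 8, beside 16.2%.

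Tap2 had 1251, 969 and 1215 normalized reads in astaxanthin 1, 2 and 3, against 402, 451 and 762 in sham 1, 3 and 5, with a log2 difference of 1.14 ± 0.37 (SE; limma adjusted p = 0.286). Nlrc5 had 170, 202 and 473 in astaxanthin 1, 2 and 3, of which astaxanthin 1 fell just below sham 5 (175). Its log2 difference was 1.64 ± 0.56 (SE; limma adjusted p = 0.307). The 5 class II chain rows summed to 1104, 996 and 892 in astaxanthin 1, 2 and 3, above all sham sums and above model 1 (620) and model 4 (639), but below model 3 (3103). Cd74 had 1547, 1269 and 1254 in astaxanthin 1, 2 and 3, and RT1-Da had 384, 338 and 301, again above model 1, model 4 and all sham libraries. The log2 ratio of the summed class II chains was 0.65 between astaxanthin and sham, -0.54 between astaxanthin and model, and 0.66 between astaxanthin and model without model 3. No p is given for these sums.

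Some RT1 rows were nearly empty in single libraries. RT1-N2 had 8.68, 0 and 115 normalized reads in astaxanthin 1, 2 and 3, 53.1, 0 and 0 in model 1, 3 and 4, and 176, 71.7 and 112 in sham 1, 3 and 5. RT1-S2 had 40.1, 0 and 129 in astaxanthin 1, 2 and 3, 90.3, 0 and 4.53 in model 1, 3 and 4, and 191, 58.1 and 155 in sham 1, 3 and 5. The same 3 libraries, astaxanthin 2, model 3 and model 4, had 5 reads or fewer in both rows. Both rows lie inside the span of another row of the table (ENSRNOG00000031607), as do RT1-N3 and RT1-S3; RT1-T24-4 shares 7567 bases with it. These 3 others were read in every library. For RT1-N2 the log2 difference between model and sham was -4.90 ± 1.95 (SE; limma adjusted p = 0.173), but -7.12 with a pseudocount of 0.1, -3.38 with 5 and -2.74 in edgeR. RT1-CE15, which shares 15392 bases with RT1-CE16, had 31.7, 1.03 and 54.3 in model 1, 3 and 4, against 323, 48.2 and 7.25 in sham 1, 3 and 5. RT1-CE1 had 903, 177 and 45.3 in model 1, 3 and 4, against 47.5, 7.41 and 37.3 in sham 1, 3 and 5, with a log2 difference of 2.97 ± 1.1 (SE; limma adjusted p = 0.152), and 1.86 without model 1.

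**Figure D5:**
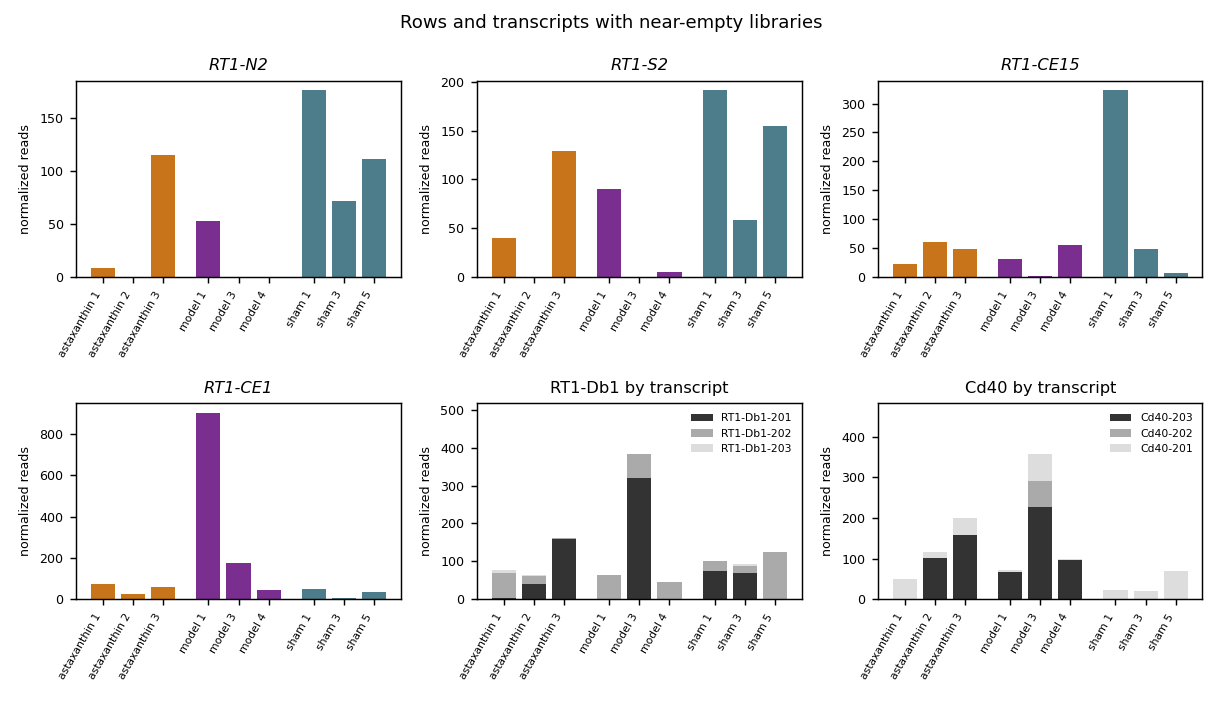
Bars give normalized reads per library for 4 RT1 rows, coloured by group, and stacked by transcript for RT1-Db1 and Cd40 in grey. RT1-N2 and RT1-S2 are empty or nearly so in astaxanthin 2, model 3 and model 4, RT1-CE1 is dominated by model 1 (903), and Cd40-203 has no bar in any sham library.

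Transcript values showed the same switching inside genes; these examples were chosen after their values were seen and carry no test. Transcript RT1-Db1-201 made up 4.11, 63.6 and 97.5% of the gene in astaxanthin 1, 2 and 3, 0, 83.7 and 0% in model 1, 3 and 4, and 72.3, 75.3 and 0% in sham 1, 3 and 5. Cd40-203 made up 0, 86.9 and 78.9% of Cd40 in astaxanthin 1, 2 and 3, 96.1, 63.7 and 98.2% in model 1, 3 and 4, and 0% in all 3 sham libraries, in which Cd40-201 held every read. The number of reads behind these shares is small, with 19.8 to 70.4 normalized reads for the whole of Cd40 in sham.

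Per kilobase of transcript, averaged over the 9 libraries, B2m was the most abundant of the 41 at 12984 normalized reads per kilobase. Psme1 (2414), RT1-DMa (1503), Psme2 (972), RT1-DMb (905) and Cd74 (888) followed. The lowest library of B2m (7470) was above the highest of Psme1 (5215), while the ranges of Psme1 and the 4 genes after it overlapped from each gene to the next. Ciita (4.40) was the least abundant. The DM genes thus exceeded the class II chains they serve, of which RT1-Da (273) was the highest and RT1-Bb (35.2) the lowest. Nlrc5 (34.3) stood near RT1-Bb. The steadiest gene was RT1-Db2, with 1.34 times as much in its highest as in its lowest library, whereas RT1-Da differed by 23.7 times.

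Other genes of these pathways were taken from lists. Of 10 tested genes of interferon gamma signalling, 3 rose in model against sham in limma, with a list median of 0.81, beside 3.45% of all genes called higher, 1.32% lower and a median of 0.02 over all genes; these shares hold for the lists that follow too. The 3 were Irf1, a transcription factor acting on class I promoters, Jak2, a kinase of the interferon gamma receptor, and Irf8, a myeloid transcription factor. Irf1 averaged 1931 ± 744 normalized reads in model and 385 ± 46.0 in sham, Jak2 7365 ± 1985 in model and 2515 ± 203 in sham, and Irf8 1050 ± 386 in model and 246 ± 40.3 in sham (SD, n = 3 each). Their log2 differences were 2.25 ± 0.36 for Irf1, 1.52 ± 0.26 for Jak2 and 2.04 ± 0.46 for Irf8 (SE; limma adjusted p = 0.0176, 0.022 and 0.0453 in that order). Ifng itself was at 0 in all 9 libraries. Of 9 other class II pathway genes, with a median of -0.04, 1 was called: Lgmn, the lysosomal protease legumain, which rose by a log2 difference of 1.0 ± 0.20 (SE; limma adjusted p = 0.0307), while Ctss, the cathepsin that trims the invariant chain, did not pass, at 11170 ± 1212 in model and 11712 ± 594 in sham (SD, n = 3 each). Of 12 tested costimulators, coinhibitors and their T cell receptors, with a median of 1.19, limma called 1, Cd274. This gene of the inhibitory ligand PD-L1 rose by 1.74 ± 0.40 (SE; limma adjusted p = 0.0471). That median includes rows of few reads, in both directions. Pdcd1 averaged 15.3 in model and 0 in sham, with 3.36 ± 1.25 (SE). Ctla4 averaged 0 in model and 7.25 in sham, with -1.5 ± 1.38 (SE). Of 9 further class I loading and trimming genes, with a median of 0.56, limma called 0; Calr had the smallest adjusted p of 0.0856, with 0.70 ± 0.20 (SE). Leaving out 1 library at a time, Irf1 stayed under the threshold in 6 of 9 fits and was lost without any 1 sham library, Jak2 in 5, Lgmn in 3, and Irf8 and Cd274 in 1, that without astaxanthin 1; their highest adjusted p values were 0.0797, 0.0911, 0.117, 0.152 and 0.16 in that order. Between astaxanthin and model, and between astaxanthin and sham, limma called 0 genes of these lists.

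Markers of other cells moved with the same libraries. Model 3 was the highest library for 22 of the 41 genes and for 23.8% of the other genes. It was also highest for 6 of 8 neutrophil markers, 7 of 7 monocyte and macrophage markers, 7 of 7 measured endothelial markers and 6 of 9 markers of T and NK cells. Summed neutrophil markers were at 409 to 996 normalized reads in astaxanthin, 716 to 15024 in model and 167 to 237 in sham, with S100a9 at 8232 in model 3. Summed macrophage markers were at 4209 to 6113 in astaxanthin, 5058 to 26610 in model and 2318 to 3311 in sham. Summed endothelial markers were at 17218 to 24121 in astaxanthin, 22549 to 91833 in model and 10319 to 11553 in sham. T and NK cell markers summed to 38.4 to 206 in astaxanthin, 58.7 to 410 in model and 27.5 to 76.6 in sham, with Klrb1 at 0 throughout. B cell markers summed to 22.8 to 164 in astaxanthin, 29.9 to 333 in model and 5.18 to 33.4 in sham. Dendritic cell markers summed to 5502, 1199 and 1017 in astaxanthin 1, 2 and 3, 816 to 1338 in model and 1352 to 1526 in sham, with Cd209a at 0 throughout. In astaxanthin 1 that sum was mostly Flt3 (2766) and Zbtb46 (2698), while Clec9a, Xcr1 and Batf3 were highest in model 3, whose median deviation from sham over the list was 2.73 on the log2 scale. Microglial markers, by contrast, summed to 11551 to 13883 in astaxanthin, 16460 to 19087 in model and 18172 to 20720 in sham. Neuronal, astrocyte and oligodendrocyte markers were read in every library, as the brain label calls for. Neuronal markers summed to 161140 to 195600 in astaxanthin, 65283 to 222472 in model, with model 3 lowest, and 202008 to 254532 in sham. Their members diverged in astaxanthin 1, where Rbfox3 (33652) was the highest of all libraries. There Map2 (18633), Syt1 (14204) and Tubb3 (11489) lay far below every sham library, and Snap25 (83162) just below. Astrocyte markers summed to 166552 to 282008 in astaxanthin, 209354 to 287382 in model and 73256 to 156666 in sham, a sum carried by Gfap; the median deviation of the 6 markers from sham was -0.22, 0.48 and 0.07 on the log2 scale in model 1, 3 and 4, and Aldh1l1 and Gja1 were lower in model 1 and 4 than in any sham library. Oligodendrocyte markers summed to 463102 to 554198 in astaxanthin, 181144 to 1422620 in model, with model 3 highest, and 360513 to 932615 in sham. The part of these cells in the differences was not tested.

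Astaxanthin 1, which was the lowest astaxanthin library for Cd86, RT1-DMb and Psme1, was the highest of all 9 libraries for 5 of 5 cerebellar markers, at 163370 normalized reads summed. The other astaxanthin libraries had 2803 and 8750, the model libraries 1332 to 12002 and the sham libraries 2533 to 10746. Choroid plexus markers were highest there too, in 5 of 5, at 187319; sham 5, the highest sham library for Tap1, Tap2, Tapbp, Nlrc5 and Cd40, had 113376, where sham 1 and 3 had 632 and 256. Their part in the differences was not tested.

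Outside the 41, the genes whose log2 values were most like the mean of the 41, each scaled to unit variance, were Parp12, Ninj1, Zc3h12a, Tmem252 and Il17rc, with Pearson r over the 9 libraries of 0.982, 0.978, 0.975, 0.972 and 0.972 in that order. Without model 3 these were 0.970, 0.940, 0.950, 0.920 and 0.930 over 8 libraries. The libraries share depth scaling and groups, so these values are descriptions.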

How the data were processed

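The authors deposited normalized signal values per gene and per transcript for 9 libraries; the tools FastQC, STAR, StringTie and DESeq2 and build rn7 are named in the submitters' processing notes, and versions, settings and the scaling factors are not given in the sources used here. Every deposited value was a whole multiple of 1 step per library within 0.01 (100% of values), so reads were recovered. limma 3.58.1 (R 4.3.3), with trend and robust moderation, was fitted to log2(value + 1) of 17770 genes with at least 0.5 in at least 3 libraries, all groups in 1 fit, two-sided. edgeR 4.0.16 and DESeq2 1.42.0 on the recovered reads were alternatives. All members are named, but RT1-CE2, RT1-CE11, RT1-CE14 and RT1-M1-4 only here. Their groups overlapped in every comparison. Of the other lists, called genes or up to 4 with the smallest p are named, with Ctss and Ifng added after their values were seen. Members and lists were chosen with earlier results of these data known. Same-numbered libraries did not deviate together, so numbers were not used as pairs. Levels per kilobase use exon lengths of the transcript table.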

Additional observations from a re-analysis of the deposited data

Results flagged for a closer look

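RT1-DOa, the alpha chain of the DO heterodimer, was left out for its low level but had 8.76 normalized reads in astaxanthin 2 and 10.3 in model 3, above 0 in both, and 0 in the other astaxanthin, model and sham libraries. Both values lie above the limit that a count of 0 allows in sham, and they are given as values without an explanation.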

How the results depend on the processing

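For model against sham, limma called 848 genes, DESeq2 2920, limma without astaxanthin 1 and model 3 together 2632, and limma with the replicate block 0; leaving out 1 library gave 73 to 1611. For astaxanthin against model the 0 calls became 206 in DESeq2, and 0 to 3 leaving out 1 library. For astaxanthin against sham, 49 became 75 with a pseudocount of 0.1, 19 with 5, 0 in edgeR, 791 in DESeq2, 4 with those groups alone, 691 without astaxanthin 1 and model 3, 0 with the replicate block and 1 to 149 leaving out 1 library. Of the 41 genes, called between model and sham were 13 in DESeq2, 1 (RT1-T24-1, lower, log2 -1.62, limma adjusted p = 0.0224) without astaxanthin 1 and model 3, 0 with the replicate block, and 0 to 3 leaving out 1 library (RT1-DMb, Tap1 and Cd86 without astaxanthin 1). Cd74 between model and sham turned to -0.02 without model 3, with or without astaxanthin 1, and ranged from there to 1.17 leaving out 1 library. The summed heavy chains between astaxanthin and model had a log2 ratio of -0.37, and -0.16 without RT1-CE16. Leaving out each library, added after seeing the data, gave 0.16 to 0.43 for summed heavy chains between model and sham, -0.02 to 1.55 for summed class II chains between model and sham, and -0.91 to 0.66 between astaxanthin and model. RT1-M5, RT1-N2, RT1-S2 and RT1-CE15 were at or under 5 reads in 1 or more libraries, so their values rest on few reads there. The cause of these changes was not tested.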
